A study of Arabidopsis thaliana with 3 samples.

Results

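The regions described here are the islands of the OX ZFHD10 library in which reads lay most closely packed. An island is a stretch of the genome that the authors' peak caller listed as enriched. The islands were taken on the 5 nuclear chromosomes if they were shorter than 2500 bp and held 411 or more reads per kb, and 726 of the 16122 OX ZFHD10 islands met both conditions, or 4.75% of the 15288 islands below that length. They are called dense islands in what follows, and the other 14562 islands below 2500 bp are the comparison. The read density chose them, so densities are given as a description without a test, and each density belongs to 1 library. The series holds 3 libraries of Arabidopsis thaliana seedlings aged 7 days in low blue light, 1 each of the wild type Col-0 and of the lines labelled OX TZP and OX ZFHD10, made with an antibody against green fluorescent protein (GFP). OX was read as overexpression of the GFP fusion. Whole seedlings were used, and the labels do not name the promoter that drives either fusion. Island lists of OX TZP and OX ZFHD10 were analysed, while Col-0 was not analysed here. Positions are on the TAIR10 build. With 1 library per line, no difference between lines or between kinds of island has a replicate check.

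ZFHD10 belongs to the zinc-finger homeodomain proteins, a plant family of transcription factors that pair a zinc-finger region for protein contact with a homeodomain that binds AT-rich DNA. TZP is a nuclear zinc-finger protein that acts in light signalling and in the growth of the hypocotyl, the seedling stem. Seedlings in weak light lengthen the hypocotyl mainly by cell expansion, which involves auxin, brassinosteroid and gibberellin, wall loosening, cortical microtubules and repeated rounds of DNA replication without division. In a chromatin immunoprecipitation, an island marks DNA recovered with the fusion protein, and it does not show that a gene nearby is controlled by it.

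The dense islands ranged from 250 to 2450 bp in length, with a median of 900 bp, against 750 bp for the other islands. They held between 105 and 1457 reads, with a median of 442.5. Their densities ran from 411 to 790 reads per kb around a median of 452, while the median over all 15288 islands was 260. The distribution fell away quickly above the minimum, with 378 islands at 450 or more, 164 at 500 or more, 34 at 600 or more and 8 at 700 or more. Counting error is large at this scale. The lower limit of the 95% exact Poisson interval reached 411 in 345 of the 726, and among the other islands 760 had an upper limit at or above 411, so membership near the minimum is not firm. Just inside the minimum lay islands at OZF2 (411 reads per kb, 95% Poisson interval 381 to 443), at AT5G66330 (370 to 455) and at PAB6 (354 to 475), with 88.2% of the first and 88.9% of the last covered by OX TZP islands. Just outside lay islands nearest to PRP3 (380 to 444), AT5G43190 (363 to 463) and AT1G04150 (371 to 453), and OX TZP overlapped the last of these. A further 85 islands reached the density but not the length limit.

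**Figure D1:**
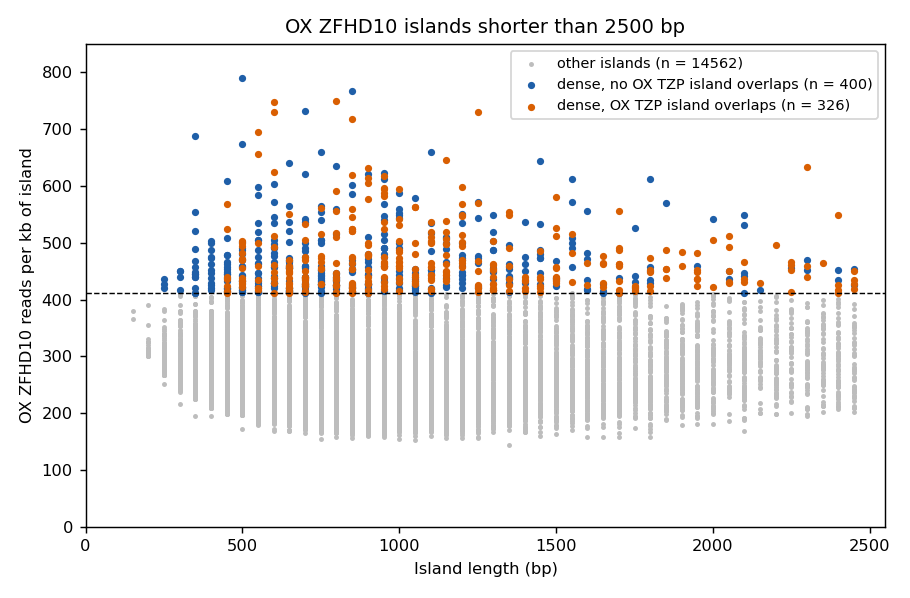
Read density (reads per kb of island) against length (bp) for each OX ZFHD10 island shorter than 2500 bp; grey points are the 14562 other islands, blue points the 400 dense islands with no overlapping OX TZP island and orange points the 326 with one, and the dashed line is the minimum of 411. The 8 islands at 700 or more were between 500 and 1250 bp long. Islands with and without OX TZP overlap were mixed up to 749 reads per kb, and no island above that was overlapped.

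The dense islands were spread over the genome. Chromosome 1 had 191, chromosome 2 had 93, chromosome 3 had 155, chromosome 4 had 116 and chromosome 5 had 171. As a share of the islands below 2500 bp this ran from 4.03% on chromosome 2 to 5.09% on chromosome 4, with overlapping 95% Wilson intervals. Neighbouring dense islands lay a median of 90.4 kb apart, and 34 of 721 neighbouring pairs were within 5 kb. In bins of 100 kb where pseudogenes outnumbered protein-coding genes lay 7 of the 726 (0.964%), against 1.28% of the others.

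Dense islands sat just outside genes more often than the other islands did. Their midpoints fell within 500 bp outside a protein-coding gene in 365 of 726 cases, or 50.3% (95% Wilson interval 46.6 to 53.9), against 38.5% (37.7 to 39.3) of the other islands. Midpoints inside a gene made up 33.5% (30.1 to 37.0) of dense islands and 42.5% (41.7 to 43.3) of the others, with 42.1% over all islands below 2500 bp. Midpoints more than 500 bp inside a gene were found in 22 dense islands (3.03%, 2.01 to 4.55) against 6.05% (5.67 to 6.45) of the others. With the other islands weighted to the lengths of the dense ones, their share centred inside genes was 40.9%. These shares come from islands of 1 library, which are not replicates, and the differences were not tested.

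**Figure D2:**
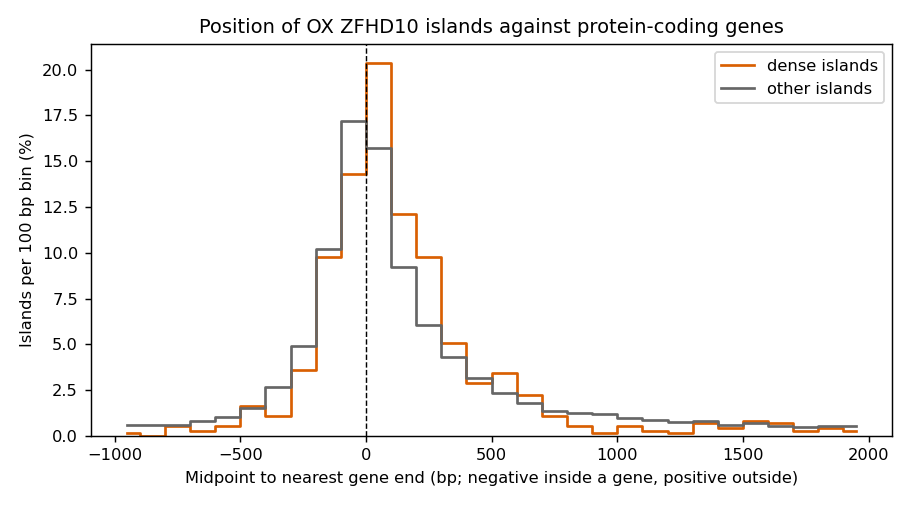
Share of islands (%) per 100 bp bin of the distance from the island midpoint to the nearest end of a protein-coding gene (bp, negative inside the gene, positive outside), for dense islands (orange) and other OX ZFHD10 islands below 2500 bp (grey). The dense islands peaked in the 100 bp outside the gene and the other islands in the 100 bp inside.

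A gene end is counted here as the 1000 bp beyond the boundary of a protein-coding gene on either side and the first 100 bp within it, since the gene table gives no strand and start and end cannot be told apart. An island at a gene end was found in 668 dense cases, or 92.0% (89.8 to 93.8), against 89.1% over all islands below 2500 bp. The dense islands touched the ends of 2 or more genes in 431 cases, or 59.4% (55.8 to 62.9). Over all islands below 2500 bp the share was 53.6%. With the other islands weighted to the lengths of the dense ones, their share was 54.7%. Up to 500 bp the order was reversed, with overlapping intervals, at 41.5% (32.1 to 51.6) of dense and 46.7% (45.0 to 48.4) of other islands. An island at the ends of several genes may be centred inside 1 of them, and it cannot be assigned to any. At 1 gene lay 237 islands, at 2 genes 386 and at 3 or more 45. The remaining 58 lay at no gene end, 10 of them wholly inside a protein-coding gene and 48 touching no protein-coding gene.

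Islands of OX TZP overlapped the dense islands more often than they did the others. An OX TZP island overlapped by at least 1 bp in 326 of the 726, or 44.9% (95% Wilson interval 41.3 to 48.5). The share was 31.4% over all islands below 2500 bp and 30.8% (30.0 to 31.5) in the other islands. Longer islands meet more by length alone, and with the other islands weighted to the lengths of the dense ones their share was 33.5%, 11.4 percentage points below. Within length classes the shares of dense and other islands were 22.3% (15.1 to 31.8) and 20.2% (18.9 to 21.6) up to 500 bp, and 35.0% (27.6 to 43.3) and 25.9% (24.5 to 27.4) from 501 to 700 bp. They were 46.7% (39.9 to 53.7) and 31.3% (29.7 to 32.8) from 701 to 1000 bp, 52.2% (45.0 to 59.2) and 37.7% (35.9 to 39.6) from 1001 to 1500 bp, and 60.7% (51.5 to 69.3) and 50.6% (48.1 to 53.0) above that. The intervals were apart in the 2 classes from 701 to 1500 bp and in the 501 to 700 bp class, and they overlapped in the shortest and longest classes. The control library behind each list is unknown here.

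**Figure D3:**
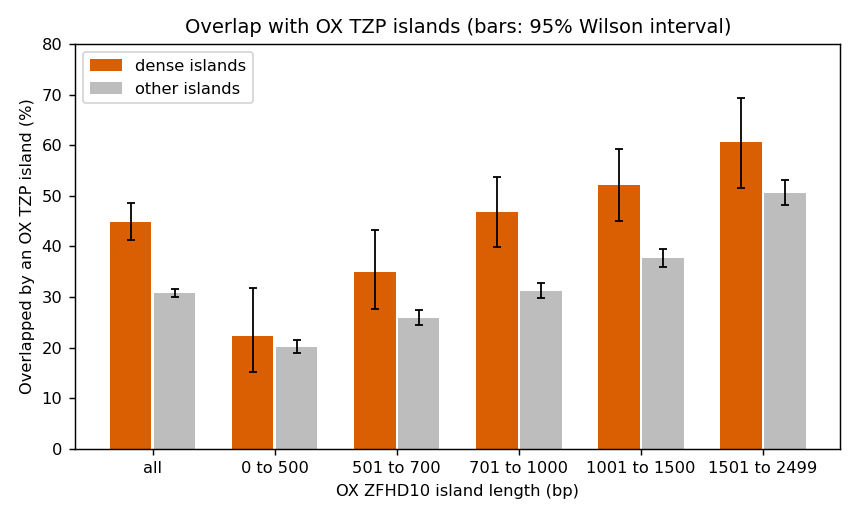
Share of OX ZFHD10 islands overlapped by an OX TZP island (%), for dense (orange) and other (grey) islands, over all lengths and in 5 length classes (bp); error bars are 95% Wilson intervals. The share rose with length in both kinds of island, from 22.3% to 60.7% in the dense ones, and the shortest class showed the smallest gap.

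With the 15288 islands ranked by density and split into 10 equal bins, the share with an OX TZP island went from 26.3% (24.1 to 28.6) in the sparsest bin to 42.2% (39.7 to 44.7) in the densest. Among the dense islands themselves the share with an OX TZP island was 42.5% (37.4 to 47.8) of the 348 islands below 450 reads per kb, 46.7% (40.2 to 53.4) of 214 from 450, 48.5% of 130 from 500 and 44.1% (28.9 to 60.5) of 34 from 600, and all 4 intervals overlapped.

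The OX TZP islands at these places were slightly denser than their own list as a whole. The 337 that met a dense island had a median of 168 OX TZP reads per kb, with quartiles of 156 and 183, and the 11675 nuclear OX TZP islands had a median of 163, with quartiles of 153 and 176. In the densest 5% of the OX TZP list lay 22 of the 337, or 6.53% (4.35 to 9.69). The highest was the island at AT3G15480 and AT3G15490, with 287 OX TZP reads per kb (244 to 336), which ranked 72, beside 537 (495 to 582) in OX ZFHD10. Most overlaps were partial, and OX TZP islands covered 56 of the 326 overlapped dense islands wholly. An OX TZP island covered a dense island to 50% or more in 221 cases (30.4%, against 20.7% of the other islands), and the midpoints of a pair lay a median of 300 bp apart. Of the 400 dense islands without overlap, 91 (22.8%, 18.9 to 27.1) had an OX TZP island within 1000 bp, a share like the 22.0% (21.2 to 22.8) of the other islands without overlap.

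At gene ends, the dense islands reached 1128 of 27444 protein-coding genes, or 4.11%, and 6.59% of the 17104 genes with any island below 2500 bp. Of these genes 484 have a symbol and 644 are named by locus alone. Among all 27444 protein-coding genes 17070 are named by locus alone, and 3.77% of those had a dense island. At 534 of the 1128 (47.3%) the densest island was overlapped by an OX TZP island. The genes had a median length of 2424.5 bp, against 2287 bp for genes with any such island and 2078 bp for all protein-coding genes.

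Many of the 20 densest islands lay at genes with no name beyond the locus, a kind that makes up 17070 of all 27444 protein-coding genes. The densest, spanning 7279201 to 7279700 of chromosome 4 with 395 reads, was centred 690 bp outside AT4G12190 and met no OX TZP island (790 reads per kb, 714 to 872). The next was centred 31 bp outside AT5G40190 and also touched the ends of AT5G40180 and of DEG9, a serine protease gene, on chromosome 5 from 16069651 to 16070500 (652 reads, 767 reads per kb, 709 to 828). An island of 599 reads stood between AT1G80850 and PLMT, which encodes a methyltransferase of phospholipid synthesis, on chromosome 1 from 30387451 to 30388250 (690 to 811 per kb), and an OX TZP island covered 50% of it. At ZCF61 and the mitogen-activated protein kinase gene MPK2, 449 reads from 21883801 to 21884400 of chromosome 1 gave 748 per kb (681 to 821), and the OX TZP island of 173 reads per kb covered all of it. A transfer RNA gene, AT1G59570, lies under the same island.

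Without OX TZP overlap were islands at AT1G20300 and AT1G20310 (731 reads per kb, 669 to 798), at AT1G54440 (689, 604 to 781) and at FZR2 and AT4G22900 (674, 604 to 750). Further ones were at IRX14-L and AT5G67220 (660, 613 to 710), at CHX9 and AT5G22920 (643, 603 to 686), at AT5G15500 and AT5G15510 (640, 580 to 705) and at UVI4 and AT2G42270 (635, 581 to 693). FZR2 and UVI4 both act on the anaphase-promoting complex, FZR2 as an activator that favours endoreduplication and UVI4 as an inhibitor. IRX14-L encodes a glycosyltransferase of xylan synthesis and CHX9 a cation/proton exchanger. With OX TZP overlap were islands at AT2G22660 (730, 663 to 802), at FBS4, an F-box gene (730, 683 to 779), and at LSM3A and AT1G21200 (718, 662 to 777). LSM3A encodes a core protein of spliceosomal and decay complexes. PnsB1, a subunit gene of the chloroplast NADH dehydrogenase-like complex, shared an island with AT1G15970 (695, 627 to 768) that an OX TZP island covered wholly. Islands at AT1G35340 (656, 590 to 728) and at AT2G31800 and AT2G31810 (645, 600 to 693) also overlapped. The island with the most reads of all dense islands, 1457 over 2300 bp, lay between AT1G01440 and TBL25, a member of the family of wall polysaccharide acetyltransferases (633, 601 to 667). LTO1, which encodes a thiol oxidoreductase of the chloroplast lumen, and AT4G35750 shared the last of the 20 (632, 581 to 686). Of these 20 islands 10 overlapped an OX TZP island, a share near the 44.9% of all dense islands. The OX TZP densities at these 10 lay between 146 and 247.5 reads per kb in no order with those of OX ZFHD10. The 10 with overlap ran from 632 to 749 OX ZFHD10 reads per kb and the 10 without from 635 to 790.

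Few islands of any density lay at no gene end, 58 of the 726 dense ones and 1668 of all 15288 below 2500 bp. The densest of the 58 at no gene end, of 660 reads per kb (603 to 721), lay on chromosome 3 from 9741251 to 9742000, centred 1983 bp from AT3G26539, and a neighbour from 9740301 to 9741000 held 541 (488 to 599). On chromosome 5 an island of 890 reads from 8767801 to 8769400 was centred 5134 bp from the nearest protein-coding gene, AT5G25280 (556, 520 to 594). None of these 3 met an OX TZP island, while 44.9% of all dense islands did. Others at no gene end were overlapped, such as the one centred 3602 bp from AT3G28922 on chromosome 3 (548, 507 to 592). Near WRKY6, a factor gene of phosphate and defence responses, 2 dense islands stood side by side. The nearer, from 23020151 to 23021000 of chromosome 1, held 465 reads per kb (420 to 513) beside 251 in OX TZP (214 to 292, rank 139). The farther, from 23021551 to 23023050 and centred 2806 bp away, held 527 (491 to 565) beside 216 in OX TZP (191 to 243, rank 397).

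At the level of gene groups the dense islands were thinly spread. The 9 lists of genes for light, growth, clock, stress and related functions held 235 genes, of which 230 were located in the gene table, and of these 10 had a dense island at a gene end, or 4.35% (2.38 to 7.82), beside the 4.11% of all protein-coding genes. The 10 were SPA1, STO, AFB2, TAA1, CEV1, ERF4, HEMA1, POR C, HB23 and HB24. Of the light signalling list 2 of 41 had one, of auxin 2 of 41, of photosynthesis and pigment 2 of 25, of cell wall expansion 1 of 20, of stress response 1 of 18 and of the zinc-finger homeodomain list 2 of 15. None was found at the 21 clock genes, which allows a share of up to 14.3%, at the 31 brassinosteroid and gibberellin genes (up to 9.68%) or at the 18 housekeeping genes (up to 16.7%). Each of these 18 had an island below 2500 bp at a gene end, as did 17104 of all 27444 protein-coding genes. The densest islands of list members with any had medians between 279 and 317 reads per kb, beside 273 for all protein-coding genes with one. A further 7 members had an island that was dense but too long for the rule, namely IBH1, HB34, WES1, XTH18, XTH19, XTH24 and BRI1. XTH18, XTH19 and XTH24 shared the same island of 8400 bp.

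Families hold every gene whose names carry set words, so partners and regulators of a protein class are included. The highest shares were at protein phosphatases with 5 of 42 (11.9%, with a lower limit of 5.19), ethylene-responsive factors with 4 of 43 (9.30%, 3.68 to 21.6), genes with calcium-related names with 9 of 98 (9.18%, 4.91 to 16.5) and RNA-binding proteins with 5 of 55 (9.09%, 3.95 to 19.6). Kinases had 32 of 583 (5.49%, 3.91 to 7.65). The 9 with calcium-related names include CIPK5, CIPK8, CIPK21 and SIP3, kinases that calcium sensors activate, and AT5G64220, whose synonyms give a calmodulin-binding transcription activator, and are no class of calcium-binding proteins. None was found at NAC factors with 0 of 102, which allows up to 2.94%, basic helix-loop-helix factors with 0 of 34 (up to 8.82%), translation factors with 0 of 30 (up to 10%) or pentatricopeptide repeat proteins with 0 of 13 (up to 23.1%). The next lowest shares were at MADS factors with 1 of 98 (1.02%, 0.180 to 5.56) and cytochrome P450 enzymes with 3 of 232 (1.29%, 0.441 to 3.73). Among members with any island below 2500 bp, 3 of 130 cytochrome P450 genes (2.31%) and 0 of 58 NAC genes had a dense one, where the share over all protein-coding genes was 6.59%. The Wilson intervals of 3 families, the phosphatases, the calcium-related names and the zinc finger proteins (8 of 99, 8.08%, 4.15 to 15.1), began above 4.11%. The zinc finger count includes HB23, taken as ZFHD10 itself, and without it the interval of 7 of 98 (7.14%, 3.5 to 14.0) began below that share, an alternative chosen after seeing the data. In all 35 lists and families were looked at, none was tested, and few members decide each share.

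**Figure D4:**
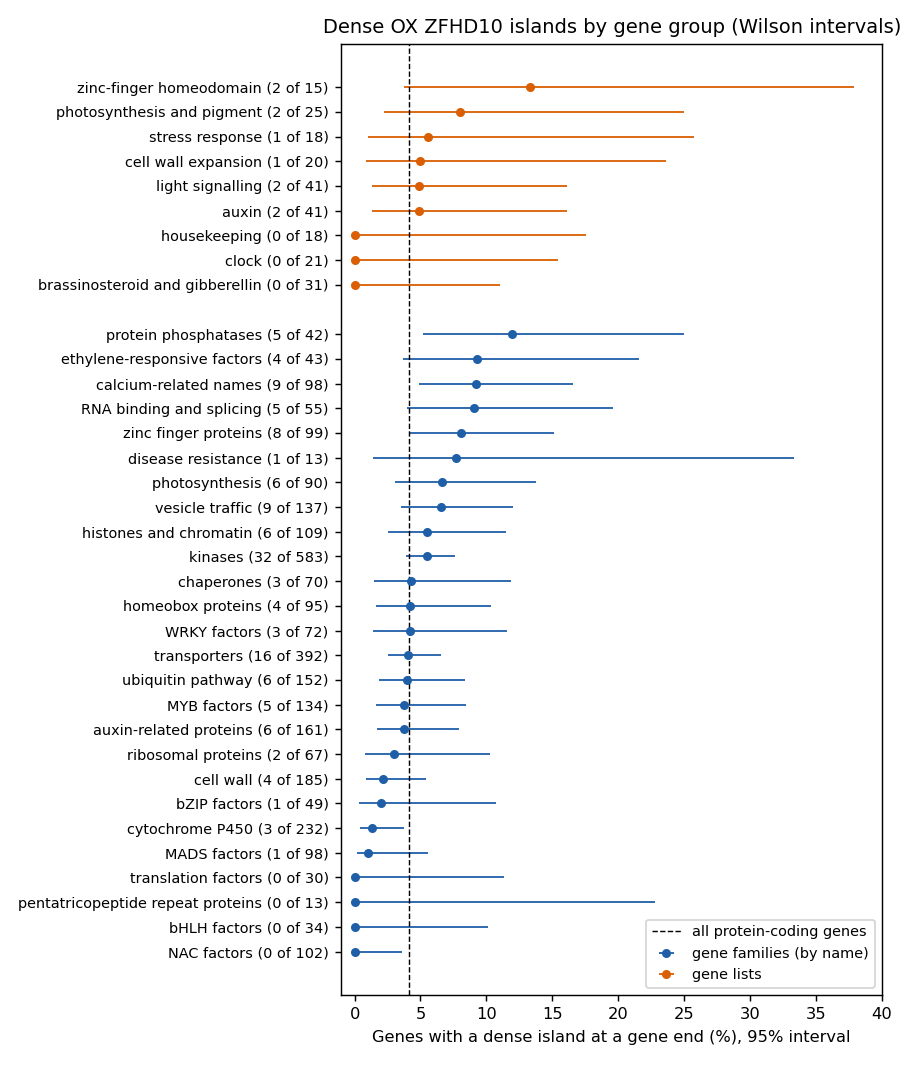
Share of the genes of each family (blue) and list (orange) that had a dense OX ZFHD10 island at a gene end (%), with 95% Wilson intervals and the counts in brackets; the dashed line is the 4.11% of all protein-coding genes. Most intervals included the dashed line, those of the NAC and cytochrome P450 families lay below it, and those of phosphatases, calcium-related names and zinc finger proteins above it.

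The genes that follow were grouped by role after their values were seen, and the groups show what lies at dense islands and not what is frequent there. Of these 102 genes, 81 shared the island with the end of at least 1 other protein-coding gene, so the role given may not belong to the gene the island concerns. The number overlapped by OX TZP in a group is to be read beside the 47.3% over all genes with a dense island. Overlap is counted at the densest island of each gene alone. For POR C, NYC1, HCF107, SNRK2.1, TBL27, BUB3.1, TUA4, TUBG1, EDE1, CIPK5, MKK9, DER1 and CMT3, no OX TZP island met that island. Each of these genes had an OX TZP island elsewhere at a gene end. Light signalling and chlorophyll genes included CIP1, which encodes a protein that interacts with the photomorphogenesis repressor COP1, with 618 reads per kb (569 to 670) and an OX TZP island of 145 (122 to 172) at the same place, and AT5G41780 shared that island. SPA1, which encodes a partner of COP1, had 453 (426 to 480) and no OX TZP overlap. STO and BBX29, both B-box genes, had 437 (390 to 489) and 436 (408 to 467) beside OX TZP values of 171 and 172. BBX29 had a second dense island of 421 (386 to 458), also overlapped. HEMA1, the gene of an early step toward chlorophyll, had 476 (428 to 528) beside 217.5 in OX TZP (174 to 268). POR C, a later enzyme of that pathway, shared an island of 436 (358 to 526) over 250 bp with AT1G03650, without overlap. NYC1, which encodes an enzyme of chlorophyll breakdown, had 451 (410 to 495), and LIL3:2, which encodes a light-harvesting-like protein, had 428 (386 to 473), neither with overlap, and shared these islands with ROPGEF9 and BI1. Of these light and chlorophyll genes, including the photolyase gene UVR3, 5 of 9 were overlapped.

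Genes of the chloroplast electron transport chain stood at dense islands with PnsB1. NdhS, another subunit gene of the same complex, had islands of 449 reads per kb (411 to 489) and 420 (379 to 465), the first overlapped by OX TZP and the second not. PIFI, a gene tied to this complex, had 470 (412 to 534) with overlap. LPA1 and LQY1, which act in photosystem II assembly and repair, had 595 (547 to 646) and 490 (440 to 545), with OX TZP overlap at LPA1. PIFI, LPA1 and LQY1 shared their islands with FAD5, GSTF7 and HVA22G. PSBQ-2, a gene of the oxygen-evolving complex, lay close to the minimum at 412 (381 to 444).

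Hormone genes were present for several pathways. For auxin, TAA1, an enzyme gene of auxin synthesis, had 520 reads per kb (466 to 578) and no OX TZP overlap. The receptor gene AFB2 had 452 (425 to 481) beside 186 in OX TZP. AFB4, another receptor gene, shared an island with CIPK8, which encodes a kinase that calcium sensor proteins activate (483, 452 to 515), and OX TZP overlapped it. The repressor genes IAA10, IAA11 and IAA34 had 584 (522 to 651), 457.5 (420 to 497) and 464 (432 to 499), with overlap at IAA11 and IAA34, and IAA11 had a second dense island of 436 (377 to 501). The island of 457.5 was shared with ABCB23. Among genes with auxin-related names, 6 of 161 had a dense island (3.73%, 1.72 to 7.89), beside the 4.11% of all protein-coding genes.

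For abscisic acid, the growth-inhibiting stress hormone, CYP707A1 and CYP707A3 encode the enzymes that break it down. At CYP707A3 there were 556 reads per kb (506 to 610), overlapped by OX TZP, with a second island of 415 (385 to 447) that was not overlapped, and CYP707A1 had 432 (390 to 477) with overlap. PP2CA, a phosphatase gene that restrains the response, had 464 (437 to 492) with overlap. ABI5, a transcription factor gene of the response, had 434 (408 to 461) without, at an island shared with AT2G36290. For ethylene, EBF1, an F-box gene that removes the EIN3 factor, had 429 (397 to 464), and ERF2, ERF4 and ERF104 had 459, 448 and 424, each with OX TZP overlap. ERF73, a gene of the low-oxygen response, shared an island of 413 (361 to 470) with the ribosomal protein gene P40, without overlap, and the ERF104 island was shared with PFK4 and AT5G61590. BSK3, a kinase gene of brassinosteroid signalling, shared an island of 536 (498 to 575) with AT4G00700, without overlap, and KAO2, an enzyme gene of gibberellin synthesis, 431 (391 to 474) with it.

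Wall and growth genes included receptor kinases that sense the state of the wall. FER had 463 reads per kb (425 to 505) with OX TZP overlap and its relative THE1 had 460 (430 to 491) without. CEV1, the cellulose synthase gene also called CESA3, had 461 with overlap. Xyloglucan genes were XTH7, a remodelling enzyme (478, 445 to 512), XT1, a xylosyltransferase (501, 460 to 545), and TBL27, an acetyltransferase (535, 492 to 580), of which XTH7 and XT1 were overlapped.

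Microtubule genes made up a group of 10, at 426 to 490 reads per kb. At their densest islands 3 of them were overlapped by OX TZP, beside 47.3% of all genes with a dense island. TUA4, TUBG1 and EDE1, not among these 3, had an OX TZP island elsewhere at a gene end. TUB4 and TUA4 encode tubulins, and had 442.5 (406 to 482) and 430 (388 to 475). TUBG1 and SPC98, which encode parts of the nucleating complex, had 475 (419 to 536) and 445 (400 to 494). EDE1 and AUG1, of the augmin type that starts branches, had 490 (450 to 532) and 453 (417 to 491), and MAP65-9, MAP70-1, MAP70-5 and MAP18 encode microtubule-associated proteins. Tubulin genes have close relatives, and the labels do not say how reads that match several places were treated. Beside FZR2 and UVI4, cell cycle genes were BUB3.1 and BUB3.2 of the spindle checkpoint (453 and 428), POLA3 of the DNA polymerase alpha complex (510, 462 to 562) and TSO2, a ribonucleotide reductase gene (438, 405 to 473). POLA3 and TSO2 were overlapped by OX TZP and the other 4 were not.

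Genes of the endoplasmic reticulum and of vesicle traffic formed a group of 12, of which 8 were overlapped by OX TZP, beside the 47.3% over all genes with a dense island. DER1, of the degradation of misfolded proteins, had 613 reads per kb (564 to 664) without overlap, whereas ERO1, of disulfide formation, and CRT1b, a calreticulin gene, had 512 (456 to 572) and 515 (465 to 569) with it. SEC22 had 546 (497 to 598) beside 204 in OX TZP (189 to 220). GC6, a golgin gene, had 582 (535 to 633) beside 228 (192 to 267). SYP21, SYP23, VSR1 and VPS45 act in sorting to the vacuole and had 433, 504, 473 and 553, without overlap at VPS45. At MEMB11 a dense island of 500 bp (422, 367 to 483) lay within an OX TZP island that ran from 15484701 to 15503800 of chromosome 2 and held 4562 reads, so this overlap says little of position.

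Signalling genes for calcium and protein kinases included CAM4, a calmodulin gene (536, 483 to 593), the calcium-dependent kinase genes CPK6 (534, 494 to 577) and CPK1 (474, 439 to 511), CIPK5 (479, 441 to 520) and the kinase genes MKK9 (462, 427 to 499) and MPK16 (497, 452 to 545). Of the 10 genes grouped here, MPK2, CIPK8, CIPK21 and MPK16 were overlapped by OX TZP. CPK6 is not among these 10, since it was grouped with abscisic acid, and was not overlapped. CNGC11 and CNGC12, neighbouring genes of cation channels, shared an island of 420 (372 to 473). Chromatin genes were the DNA methyltransferase genes CMT2 (415, 373 to 461) and CMT3 (426, 382 to 474), SUVH5, a histone methyltransferase gene (494, 455 to 536), SWN of the Polycomb system (421, 376 to 470), and MSI3, HDT4 and the histone gene HTB11, whose island was shared with AT3G46020 and the ribosomal protein gene RPS15AD. SUVH5, MSI3 and HDT4 were overlapped.

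The gene taken as ZFHD10, HB23, carried 2 dense islands, of 548 reads per kb (519 to 579) and 426 (382 to 474), and an OX TZP island covered 16.7% of the first. The library comes from a line with an introduced copy, so binding there and added copies of the sequence cannot be told apart. Its relative HB24 had 458 (431 to 487) with OX TZP overlap. HB16 and KNAT3, homeobox genes of other classes, had 572 (513 to 635) and 482 (428 to 541) without overlap. In all, 23 genes had 2 dense islands at their ends and none had more.

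**Figure D5:**
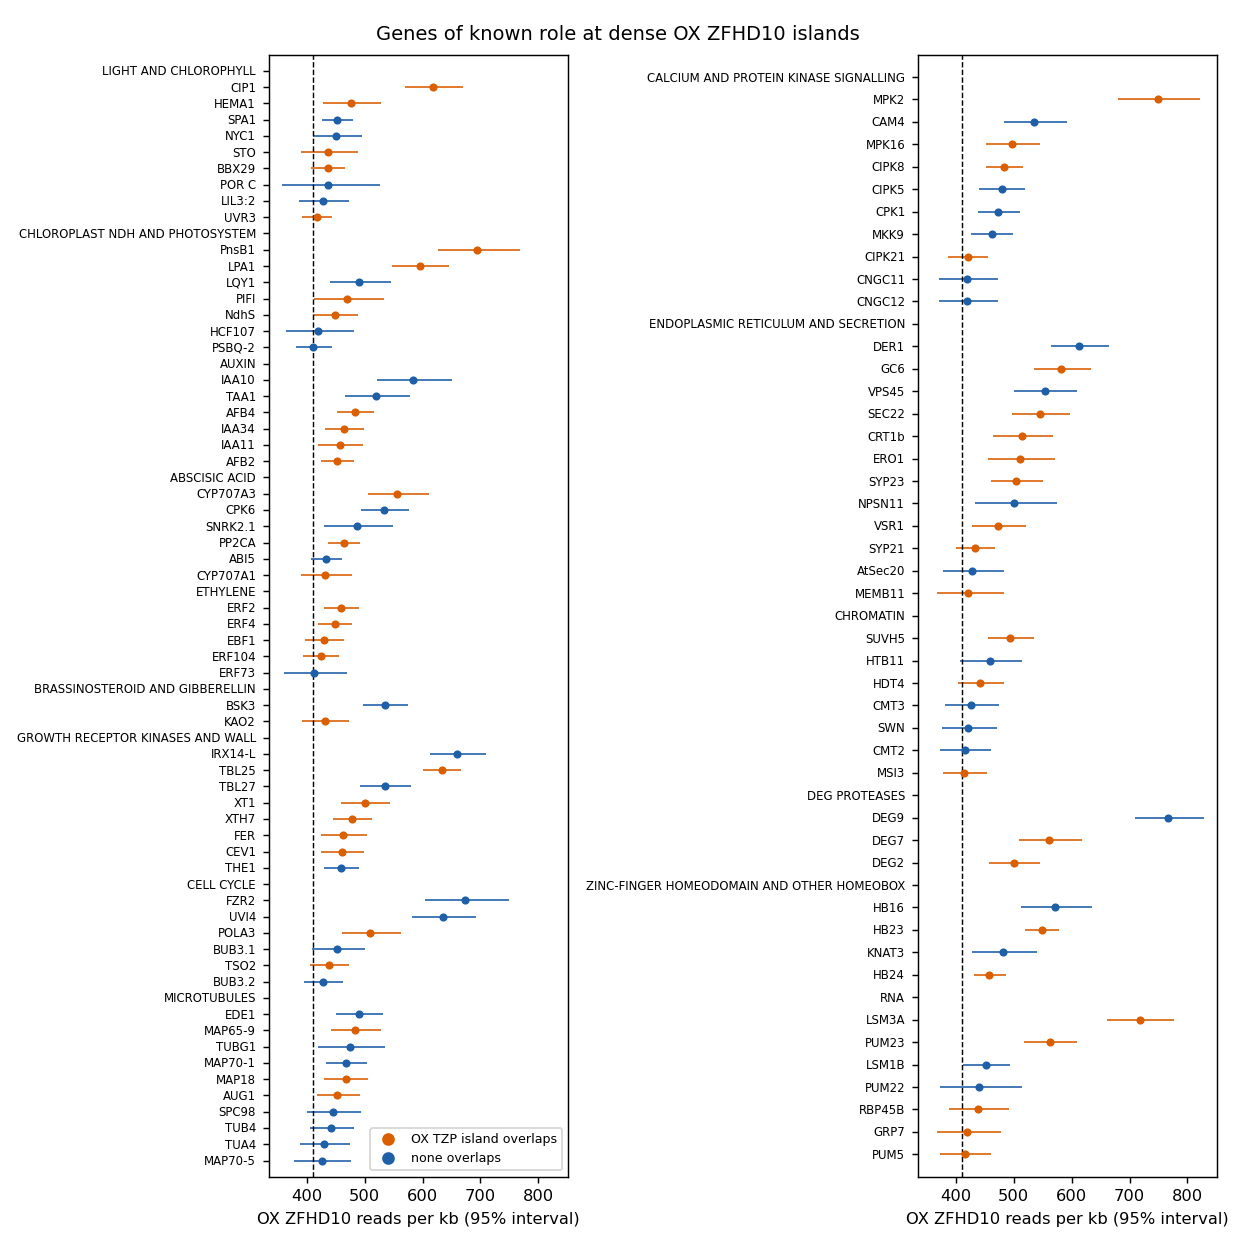
Reads per kb of the densest OX ZFHD10 island at a gene end (x axis, with 95% Poisson intervals) for genes of known role. Genes were grouped by role after their values were seen, and the dashed line is the minimum of 411. Orange genes had an OX TZP island overlapping their densest island and blue genes had none there. Each group holds genes with and without overlap, and many intervals reach below the minimum.

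Among genes that encode no protein, dense islands overlapped 13 of 625 transfer RNA genes (2.08%) and 4 of 287 small nucleolar RNA genes (1.39%). They also overlapped 3 of 82 small nuclear RNA genes (3.66%) and 51 of 3480 long noncoding RNA genes (1.47%). Among those under any island below 2500 bp, the shares were 4.94%, 4.88%, 8.33% and 5.06% in this order. Of the islands themselves 4.75% were dense. No microRNA gene of 326 lay under a dense island, which allows a share of up to 0.920%. Only 37 of the 326 lay under an island below 2500 bp of any density, too few for the 0 to show a lower share than at other RNA genes. Many of the RNA genes under dense islands shared these islands with protein-coding neighbours. The island of 451 reads per kb (410 to 495) at NYC1 and ROPGEF9 covered 3 small nucleolar RNA genes, the one at POR C a transfer RNA gene, and the one at GRP7, which encodes a clock-regulated RNA-binding protein, another (420, 368 to 478). Beside the 4.94% of transfer RNA genes with any island below 2500 bp that had a dense one, the 6.59% of protein-coding genes is on another definition, since gene ends were used there and overlap with the gene here.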

How the data were processed

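The authors deposited a list of islands for OX TZP and for OX ZFHD10, whose values are unscaled whole-number counts of reads. No label defines that column, and it was read as a count from its values and from SICER's format. The submitters' processing notes list SICER 1.1, Bowtie 0.12.7, HOMER, cutadapt 1.5 and the TAIR10 build, without saying what each did. The deposited lists' names give 50 bp windows, 200 bp gaps and a rate of false discoveries of 0.1. Control library and duplicate handling are not given in the sources. Long windows and gaps join neighbours, and a loose rate admits weak islands. Whole-library depth is unknown, so densities were compared within a list. The fewest reads in a dense island were 105.

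Positions were written counted from 1. Genes came from a table of TAIR10.1 without strand or sequence, used for names and neighbours. Its positions fitted: midpoints of OX ZFHD10 islands fell inside genes least often at an offset of 0 bp on each of the 5 chromosomes. Motifs and promoter sequences were not analysed here. Named genes were those at the 20 densest islands, list and family members and islands around the minimum, and the role groups were chosen after values were seen. The members and lists were chosen with earlier results of these data known. Words for some families were corrected after a first look. Wilson and exact Poisson intervals at 95% cover counting error only, since PCR reads are not independent molecules. Limits for a count of 0 use 3 counts. The overlap code was tested on simulated intervals. Python 3.11.15, pandas 2.3.3 and SciPy 1.17.1 were used. Alternatives changed the density and length limits, the overlap, the gene end and the assignment of genes.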

Additional observations from a re-analysis of the deposited data

How the results depend on the processing

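The count of 726 dense islands was 378 at 450 reads per kb or more, 164 at 500 or more and 345 with the lower Poisson limit at the minimum, and the 1128 genes became 588, 261 and 536. With the nearest gene to each midpoint there were 714 genes. The 10 list members became 2 at 500 or more, 6 for islands shorter than 1500 bp and 17 with no length limit. In that last count XTH18, XTH19 and XTH24 stood at the same island. The share overlapped by OX TZP, 44.9%, was 49.3% with the lower Poisson limit, 30.4% and 24.2% where 50% of the OX ZFHD10 island or of each island had to be covered, and 27.5% with OX TZP islands at or above their median density. In the other islands these last 3 shares were 20.7%, 14.2% and 16.6%. The gene-end share, 92.0%, was 88.6% for 500 bp outside, 96.0% for 2000 bp and 80.4% for midpoints. The difference in overlap between dense and other islands, 14.1 percentage points, was 11.4 with lengths weighted and 14.5 at gene ends alone, both alternatives chosen after seeing the data. Counts fell under a stricter minimum because fewer islands were kept, and the cause of the higher overlap share there was not tested. No paired analysis was possible because each line had 1 library. Promoter motifs were not run, since no promoter sequence was used here.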
